A study of Mus musculus with 8 samples.

Results

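The genes described here encode the proteins that carry the first steps of T cell receptor signalling, and they were chosen as 9 named rows of the deposited tables out of 25078 gene rows. They are the CD3 chains Cd3e, Cd3g and Cd247, the kinases Lck, Fyn and Zap70, the adaptor Lat, the phosphatase Ptpn22 and the kinase Matk. Matk was included because it was known to be low in STAT3ko CD4 T cells in these same libraries, so it was selected on its levels in the CD4 libraries, which are given below as a description with no test. The other 8 were chosen for their role, with earlier results of these data known. The sequenced RNA came from donor T cells that were isolated from recipient spleens at day 6 of hematopoietic cell transplantation (HCT). CD4 and CD8 T cells of WT and of STAT3ko donors made 4 groups of 2 libraries. Donor T cells came from C57BL/6 mice that were WT or carried floxed Stat3 with a CD4-Cre transgene, in which Cd4 regulatory sequences drive the recombinase in the precursors of both lineages. All recipients were lethally irradiated WT BALB/c mice that also received T cell-depleted bone marrow from WT C57BL/6 donors. The ages of the mice are not given in the sources used here. Each library pooled sorted cells of several recipients, so the spread between the 2 libraries of a group is the spread between pools and not between single animals.

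The T cell receptor has no enzyme of its own. Its signal passes through the CD3 chains, whose tyrosine motifs are phosphorylated by the Src family kinases Lck and Fyn. Zap70 binds the phosphorylated motifs and then phosphorylates Lat, on which further enzymes assemble. Several proteins hold the Src family kinases back. Csk and its relative Matk phosphorylate their inhibitory tyrosine, and Ptpn22 removes phosphate from their activating tyrosine and from Zap70. Csk is found in nearly all cells, whereas Matk is known mainly from blood cells and brain.

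The libraries held between 20171396 and 23282757 counts, and 12428 genes, all 9 members among them, had enough counts to be tested. Stat3 itself was at 436 and 428 CPM in the WT and 138 and 141 CPM in the STAT3ko libraries of CD4 T cells, where CPM are counts scaled to a common library size with TMM factors, a log2 fold change of -1.63 ± 0.12 (SE, adjusted p = 0.000753). It was at 431 and 436 CPM in the WT and 119.7 and 143 CPM in the STAT3ko libraries of CD8 T cells (-1.72 ± 0.12, adjusted p = 0.00536). The sum of 6 T cell markers was between 3056 and 3930 CPM by column total in all 8 libraries, and the sort markers Cd4, Cd8a and Cd8b1 followed the labels. The sums of markers of other cells lay between 0.446 and 5.87 CPM for erythroid cells, between 1.04 and 9.12 CPM for megakaryocytes and platelets, and between 3.24 and 21.8 CPM for neutrophils and myeloid progenitors. Those of B cells, macrophages and NK cells differed between groups and are given beside the results. The neutrophil sum also differed between the WT and STAT3ko libraries of CD8 T cells, as given with Matk below.

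The first comparison asked whether loss of STAT3 altered these transcripts in CD4 T cells. None of the 8 members that could be tested passed the threshold (edgeR quasi-likelihood test, adjusted p under 0.05), while 11.6% of all tested genes did. At an unadjusted p under 0.05 only Fyn was counted, against 27.5% of all genes. A fit with a block for the replicate number, described in the closing section, called Fyn and 30.1% of all genes. The 2 groups did not overlap for Cd247, Fyn and Lat, 3 of the 8 members without Matk, against 53.5% of all genes. The median log2 fold change of the 8 members was -0.10, and that of all tested genes was 0.017.

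In CD8 T cells all 9 members could be tested, since the rule for Matk used the CD4 libraries, and 0 of 9 passed, while 2.07% of all tested genes did. At an unadjusted p under 0.05 only Matk was counted, against 19.3% of all genes. The fit with the replicate block called Matk and 18.2% of all genes. The groups did not overlap for Lck, Fyn, Zap70, Lat and Matk, 5 of 9 members, against 49.7% of all genes. For the difference between the CD8 and CD4 effects of STAT3 loss, 0 of 8 members and 0% of all genes passed, and 0 of 8 members had an unadjusted p under 0.05, against 7.9% of all genes. DESeq2 likewise called no member for that difference.

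Between the lineages more genes differed. In WT cells 2 of 8 members, Cd247 and Fyn, were lower in CD8 than in CD4 T cells, and 23.8% of all genes were called, 11.6% of all genes in the lower direction. In STAT3ko cells the same 2 genes were lower, where 12.5% of all genes were called and 6.67% were called lower. The fit with the replicate block called Cd247, Fyn, Zap70, Lat and Ptpn22 in both lineage comparisons. It called 42.1% of all genes in WT and 29.7% in STAT3ko. The lowest and highest levels of the CD4 and CD8 libraries did not overlap for any of the 8 members without Matk in WT cells, against 59.3% of all genes, nor for any of these 8 in STAT3ko cells, against 58.3%. The lineage comparisons and the STAT3ko comparisons use the same libraries, so their values for a gene are given side by side and were not compared with each other.

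**Figure D1:**
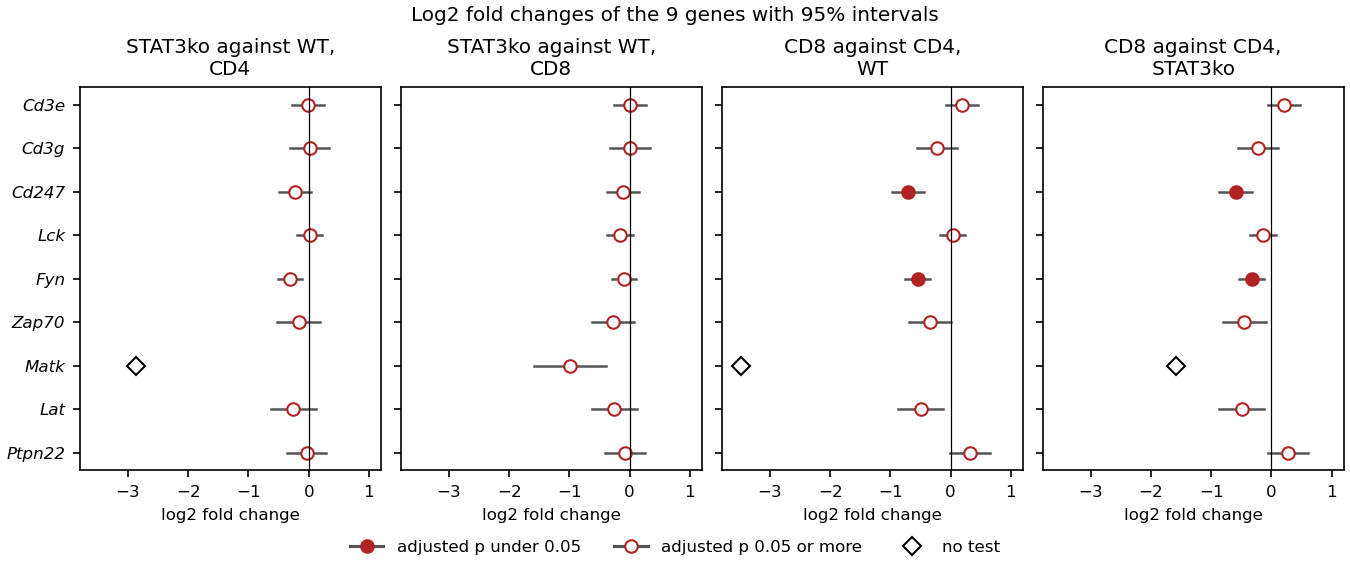
Log2 fold changes (horizontal axis, no unit) of the 9 genes in 4 comparisons, with 95% intervals from the edgeR quasi-likelihood fit as lines, filled circles for an adjusted p under 0.05 and open diamonds for Matk where no test was made. Filled circles appear only for Cd247 and Fyn in the CD8 against CD4 comparisons, and the Matk values of -2.87, -3.47 and -1.59 lie far to the left of the other genes.

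Matk, the relative of Csk that restrains Src family kinases, had the widest range of levels as a ratio of the highest to the lowest library. WT CD4 libraries held 76.3 and 84.7 CPM, from 1530 and 1792 counts. STAT3ko CD4 libraries held 9.35 and 12.7 CPM, from 187 and 277 counts. WT CD8 libraries held 5.53 and 8.93 CPM, and STAT3ko CD8 libraries held 3.47 and 3.83 CPM. Both WT CD4 libraries therefore stood far above the other 6, and the 4 groups did not overlap with each other, with CD4 above CD8 and WT above STAT3ko in each lineage, although the lower STAT3ko CD4 library lay close to the higher WT CD8 library. In CD4 T cells the STAT3ko mean was 13.7% of the WT mean, a log2 fold change of -2.87. Of the 8758 genes whose mean log2 CPM reached 3, it ranked 4 from the lowest, next to Fam20a at -2.87 and Stom at -2.77, and of all 12428 tested genes it ranked 59. These values chose the gene and carry no test.

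In CD8 T cells the STAT3ko mean of Matk was 50.5% of the WT mean. The log2 fold change was -0.98 ± 0.26 (SE, unadjusted p = 0.00537, 95% interval -1.58 to -0.39), and it missed the threshold with an adjusted p of 0.0949. The adjusted p was 0.00849 by DESeq2, 0.01 by the edgeR likelihood-ratio test and 0.0377 with no filter on low counts, so the call depends on the method, and over all alternatives it ran from 0.00514 to 0.434. The counts behind it were 128 and 212 in WT and 72 and 85 in STAT3ko. The fold change was -0.60 when WT CD8 replicate 2 was left out (adjusted p = 0.434) and -1.30 when replicate 1 of that group was left out (0.0739), and -0.66 on the log2(RPKM + 1) scale. The sum of 6 NK cell markers, mostly Gzma, differed there too, without overlap. It was at 943 to 1074 CPM in the WT and 544 to 865 CPM in the STAT3ko libraries of CD8 T cells. The neutrophil and myeloid progenitor sum was also lower with STAT3 loss there, at 5.78 and 6.90 CPM against 9.15 and 21.8 CPM in WT. The part of these cells in this and the other CD8 results was not tested. Within WT, the CD8 mean of Matk was 8.98% of the CD4 mean, and within STAT3ko it was 33.2%. In a bulk library a lower level in all cells and fewer cells that carry the transcript cannot be told apart.

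Some markers of other cells moved with the CD4 groups. The sum of 7 B cell markers was 106 to 124 CPM in the WT libraries and 149 to 171 CPM in the STAT3ko libraries of CD4 T cells, and most of it was Cd22, at 94.6 to 167 CPM. Of the defining B cell genes, Ms4a1 was at no more than 0.147 CPM and Cd79a at no more than 0.273 CPM in CD4 libraries. Cd79b was at 0.892 and 1.27 CPM in the WT libraries against 2.06 and 2.46 CPM in the STAT3ko libraries. Pax5, on the same list, went the other way, with 16.8 and 9.89 CPM in the WT libraries against 0.197 and 0.501 CPM in the STAT3ko libraries. The sum of 8 macrophage and monocyte markers was 56.9 to 82.7 CPM in the WT libraries against 98.1 to 159 CPM in the STAT3ko libraries, with Itgam the highest gene, and the part of those cells in the Matk levels was not tested. Csf1r, which defines macrophages, was at 1.93 and 11.8 CPM in the WT libraries against 2.51 and 14.1 CPM in the STAT3ko libraries. It thus followed the replicate number rather than the genotype. Lyz2, Adgre1, Cd14, C1qa and C1qb were also higher in replicate 2 of each group, CD8 groups included. Cd68 and Itgam, on the same list, were not higher in replicate 2 of every group.

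Because the comparison removed a transcription factor, the sequences just upstream of the transcription starts were searched for the palindrome TTCNNNGAA, the core that STAT dimers bind. RefSeq (GRCm38.p6) windows of 250 bases before to 50 bases after a start were found for all 9 genes, 14 windows in total. The motif, searched on both strands, occurred in 1 of 14 windows, or 7.14%, against 8.3% of 32851 windows of all genes. The only one was at the second Ptpn22 start, where the motif began 232 bases before the start, and neither Matk window held it. The 250 bases before both Matk starts and before that Ptpn22 start are shown because Matk is the member picked for its low level in STAT3ko CD4 and Ptpn22 the only one with a match, with the match in capitals.
Matk start 1, chr10:81252685-81252934, plus strand: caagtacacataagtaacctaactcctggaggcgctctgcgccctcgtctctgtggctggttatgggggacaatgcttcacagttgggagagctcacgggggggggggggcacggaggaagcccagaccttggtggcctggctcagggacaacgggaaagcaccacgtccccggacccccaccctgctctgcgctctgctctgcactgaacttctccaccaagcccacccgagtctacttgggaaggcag
Matk start 2, chr10:81257049-81257298, plus strand: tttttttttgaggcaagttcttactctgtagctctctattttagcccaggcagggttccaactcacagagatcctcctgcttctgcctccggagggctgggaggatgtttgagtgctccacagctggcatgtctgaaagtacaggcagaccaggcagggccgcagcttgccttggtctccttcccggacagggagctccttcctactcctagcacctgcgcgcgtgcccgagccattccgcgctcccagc
Ptpn22 start 2, chr3:103860027-103860276, plus strand: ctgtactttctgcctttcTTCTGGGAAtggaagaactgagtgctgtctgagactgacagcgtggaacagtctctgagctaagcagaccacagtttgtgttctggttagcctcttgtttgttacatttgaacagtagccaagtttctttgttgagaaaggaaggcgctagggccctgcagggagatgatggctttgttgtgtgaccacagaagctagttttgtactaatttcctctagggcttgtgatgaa
A match of letters is a description of the window and not a binding site, and the absence of these letters says nothing about STAT3 at other distances. Ptpn22, which holds the match, did not pass in either STAT3ko comparison.

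The genes whose pattern over the 8 libraries was most like that of Matk were sought among 8757 genes by the root mean square difference of centred log2 CPM, and the choice is a description of likeness. The closest 4 were Rflnb (0.31), Igf1r (0.35), Angptl2 (0.37) and Fam43a (0.37), on a log2 scale on which Matk itself spanned 4.57. Igf1r, the receptor for insulin-like growth factor 1, was at 65.2 and 50.5 CPM in the WT and 8.70 and 13.3 CPM in the STAT3ko libraries of CD4 T cells, and at 3.98 and 6.06 CPM in the WT and 1.59 and 2.30 CPM in the STAT3ko libraries of CD8 T cells. Angptl2, a secreted angiopoietin-like protein, was the most abundant of the 4, with 244 and 214 CPM at the top in WT CD4 T cells and 16.5 and 18.0 CPM at the bottom in STAT3ko CD8 T cells. All 4 genes were highest in both WT CD4 libraries and lowest in the STAT3ko CD8 libraries, as Matk was.

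**Figure D2:**
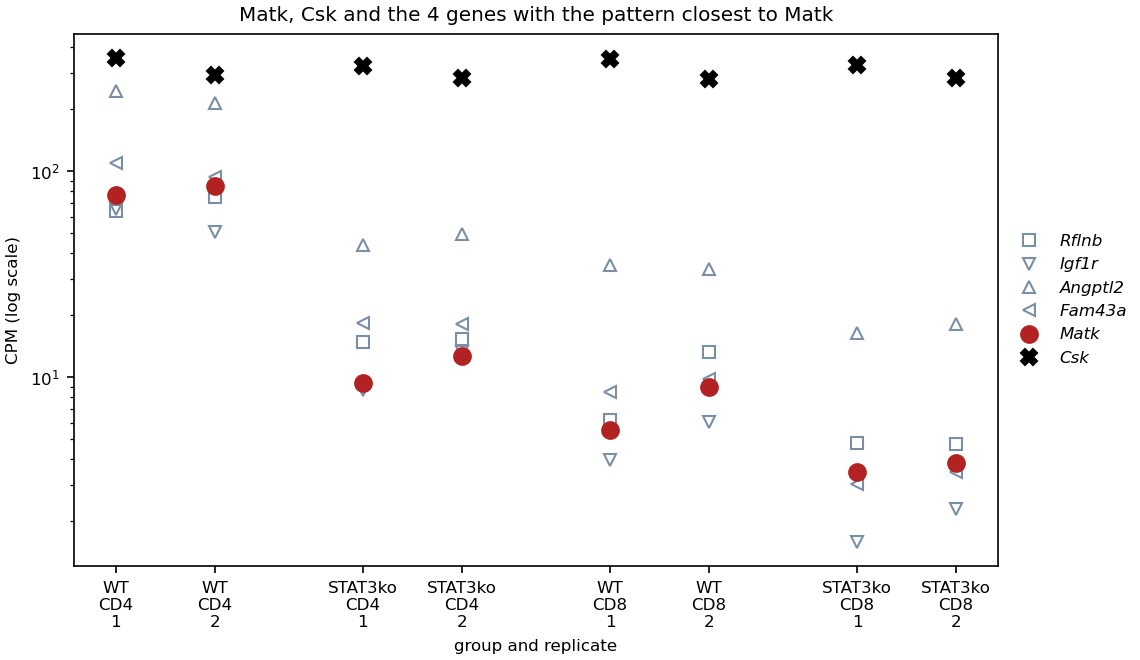
CPM (vertical axis, log scale) of Matk, its relative Csk and the 4 genes closest to Matk in pattern, in each of the 8 libraries (horizontal axis, group and replicate). Matk ranges from 3.47 to 84.7 CPM, whereas Csk stays between 279 and 354 CPM.

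Csk, which carries out the same reaction as Matk, was at 354 and 291 CPM in the WT and 323 and 282 CPM in the STAT3ko libraries of CD4 T cells, and 352 and 279 CPM in the WT and 329 and 283 CPM in the STAT3ko libraries of CD8 T cells. The first library of each group was the higher one throughout, and the groups overlapped in all comparisons. Its log2 fold change was -0.094 ± 0.16 in STAT3ko CD4 (SE, adjusted p = 0.766) and -0.046 ± 0.16 in STAT3ko CD8 (adjusted p = 0.921). Per length, as a ratio of RPKM (the deposited values per exon length and library size), Csk exceeded Matk by 2.84 ± 0.60 times in WT CD4 (SD, n = 2) and by 19.9 ± 6.0 times in STAT3ko CD4. The ratio was 33.3 ± 16 in WT CD8 and 59.1 ± 10.5 in STAT3ko CD8.

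Cd3e and Cd3g were close to level across genotypes. Cd3e, the epsilon chain, was at 632 and 576 CPM in the WT and 601 and 600.2 CPM in the STAT3ko libraries of CD4 T cells, and 662 and 717 CPM in the WT and 639 and 746 CPM in the STAT3ko libraries of CD8 T cells. Its log2 fold change with STAT3 loss was -0.0079 (95% interval -0.27 to 0.25, adjusted p = 0.975) in CD4 and 0.0058 (-0.26 to 0.27, adjusted p = 0.985) in CD8 T cells. Cd3g, the gamma chain, was at 711 and 872 CPM in the WT and 709 and 889 CPM in the STAT3ko libraries of CD4 T cells, with the second library higher in each group. It was at 656 and 703 CPM in the WT and 677 and 687 CPM in the STAT3ko libraries of CD8 T cells. Its intervals for STAT3 loss, -0.32 to 0.35 in CD4 and -0.33 to 0.34 in CD8, leave room for changes of up to about that size. Cd3d, the delta chain, which is one of the other pathway genes, was at 452 and 695 CPM in the WT and 406 and 519.9 CPM in the STAT3ko libraries of CD4 T cells, and 395 and 529 CPM in the WT and 373 and 419 CPM in the STAT3ko libraries of CD8 T cells. Its log2 fold change with STAT3 loss was -0.31 ± 0.23 in CD4 (SE, adjusted p = 0.456) and -0.22 ± 0.23 in CD8 (adjusted p = 0.678), and the groups overlapped in both lineages. Between lineages Cd3e was 0.19 ± 0.11 (SE, adjusted p = 0.271) higher and Cd3g 0.22 ± 0.14 lower on the log2 scale in WT CD8, and neither passed.

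Cd247, the zeta chain, which carries most of the signalling motifs of the receptor, separated the lineages. It was at 715 and 792 CPM in the WT and 616 and 674 CPM in the STAT3ko libraries of CD4 T cells, and 457 and 467 CPM in the WT and 459 and 395 CPM in the STAT3ko libraries of CD8 T cells. All 4 CD4 libraries lay above all 4 CD8 libraries. In WT the CD8 mean was 61.3% of the CD4 mean, a log2 fold change of -0.71 ± 0.12 (SE, adjusted p = 0.00415), which held without each library in turn. In STAT3ko it was 66.2%, or -0.60 ± 0.12 (adjusted p = 0.0163), and that call was lost without STAT3ko CD4 replicate 1 (adjusted p = 0.0696), without STAT3ko CD4 replicate 2 (0.107) and without STAT3ko CD8 replicate 2 (0.103), where 1 library stands for its group. With STAT3 loss Cd247 was lower by 0.22 ± 0.12 in CD4 T cells (log2, adjusted p = 0.26) and by 0.11 ± 0.12 in CD8 T cells (adjusted p = 0.662), and neither passed. The annotation places 2918 exon bases of Pou2f1, on the opposite strand, within exons of Cd247, and the labels and the study's methods name different library kits, so whether the counting used the strand is not settled here.

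Lck and Fyn, the Src family kinases that start the signal, behaved differently from each other. Lck was at 1004 and 978 CPM in the WT and 968 and 1035 CPM in the STAT3ko libraries of CD4 T cells, and 1011 and 1019.9 CPM in the WT and 946 and 871 CPM in the STAT3ko libraries of CD8 T cells. These 8 values differ little, and the STAT3ko CD8 libraries were the 2 lowest. The log2 fold change of Lck was 0.015 (95% interval -0.19 to 0.22) with STAT3 loss in CD4, -0.16 (-0.37 to 0.048, adjusted p = 0.385) with STAT3 loss in CD8, and 0.035 between WT CD8 and WT CD4 (adjusted p = 0.815).

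Fyn was at 1082 and 1013 CPM in the WT and 849 and 840.0 CPM in the STAT3ko libraries of CD4 T cells, and 718 and 717 CPM in the WT and 669 and 673 CPM in the STAT3ko libraries of CD8 T cells. The 4 groups did not overlap, and the 2 libraries of each group were close together. In WT the CD8 mean was 68.5% of the CD4 mean, a log2 fold change of -0.55 ± 0.087 (SE, adjusted p = 0.00357), and in STAT3ko it was 79.5%, or -0.33 ± 0.087 (adjusted p = 0.0459). The STAT3ko call stood just inside the threshold. It was lost with the edgeR likelihood-ratio test (adjusted p = 0.17), with no filter on low counts (0.102), with the 4 libraries alone (0.0617), with log2 RPKM in limma (0.0606 to 0.0645) and without any of STAT3ko CD4 replicates 1 and 2, WT CD8 replicates 1 and 2 and STAT3ko CD8 replicates 1 and 2 (0.0775 to 0.211). With STAT3 loss Fyn was at 80.6% of the WT mean in CD4 T cells (-0.31 ± 0.087, 95% interval -0.51 to -0.11), which missed the threshold with an adjusted p of 0.0593, while DESeq2 gave 0.00546 and scaling by total counts 0.0404. The fit with the replicate block also called Fyn there. In CD8 T cells it was at 93.6% (-0.096 ± 0.087, adjusted p = 0.616). The difference between these effects was 0.22 ± 0.12 and did not pass (adjusted p = 0.785).

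**Figure D3:**
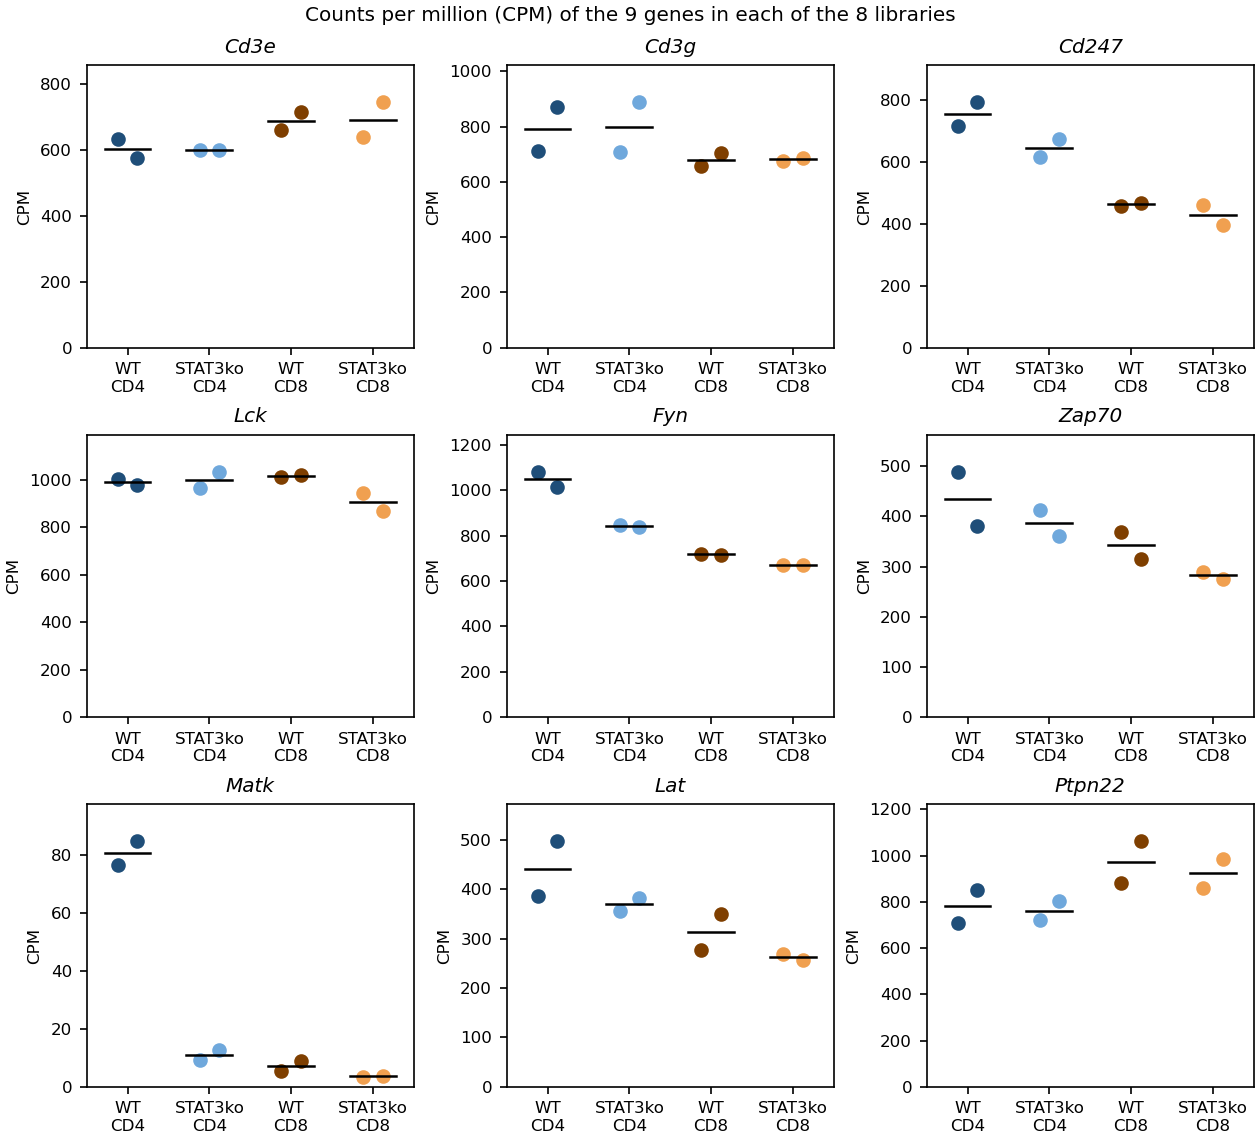
CPM (vertical axis, TMM-scaled, from 0) of each of the 9 genes in the 8 libraries, with points for libraries and a line for the mean of each group of 2. Cd247 and Fyn are higher in the CD4 than in the CD8 libraries, Lck lies between 871 and 1035 CPM throughout, and Matk is high only in WT CD4.

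Zap70, the kinase recruited to the phosphorylated chains, was at 489 and 380.0 CPM in the WT and 413 and 361 CPM in the STAT3ko libraries of CD4 T cells, and 369 and 316 CPM in the WT and 289.7 and 276 CPM in the STAT3ko libraries of CD8 T cells. The first library was the higher one in each group. With STAT3 loss its log2 fold change was -0.17 ± 0.15 in CD4 (SE, adjusted p = 0.543) and -0.28 ± 0.15 in CD8 T cells (adjusted p = 0.379), the latter with no overlap of the groups. The CD4 value was -0.00018 without WT CD4 replicate 1 and -0.35 without WT CD4 replicate 2, and the CD8 value was -0.17 without WT CD8 replicate 1. Between CD8 and CD4 it was -0.34 ± 0.15 in WT (adjusted p = 0.15) and -0.45 ± 0.15 in STAT3ko (adjusted p = 0.0984), and DESeq2 gave an adjusted p of 0.0369 for the latter. The edgeR fit with the replicate block called both (adjusted p = 0.00975 and 0.00322). The WT value was -0.17 without WT CD4 replicate 1 and -0.53 without WT CD4 replicate 2.

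Lat, the membrane adaptor that Zap70 phosphorylates, was at 386 and 497 CPM in the WT and 356 and 382 CPM in the STAT3ko libraries of CD4 T cells, and 276 and 350.4 CPM in the WT and 268 and 257 CPM in the STAT3ko libraries of CD8 T cells. Both STAT3ko groups lay below their WT groups without overlap, by -0.26 ± 0.16 in each lineage on the log2 scale (SE, adjusted p = 0.35 in CD4 and 0.448 in CD8). The CD4 value was -0.46 without WT CD4 replicate 1 and -0.075 without WT CD4 replicate 2, and the CD8 value was -0.43 without WT CD8 replicate 1 and -0.081 without replicate 2 of that group. Between CD8 and CD4 the log2 fold change was -0.50 ± 0.16 in WT (adjusted p = 0.0607) and -0.49 ± 0.16 in STAT3ko (adjusted p = 0.0897), and neither passed. DESeq2 called both (adjusted p = 0.0141 and 0.0259), as did the edgeR fit with the replicate block (0.00384 and 0.00659). The WT difference also passed with no filter (0.0386). With 1 library left out it ran from -0.69 (without WT CD8 replicate 2) to -0.32 (without WT CD4 replicate 2). The STAT3ko difference passed in a fit to its 4 libraries alone (0.0342).

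Ptpn22, the phosphatase that opposes Lck and Zap70, had the highest log2 fold change of the members between CD8 and CD4 T cells. It was at 708 and 853 CPM in the WT and 721 and 802 CPM in the STAT3ko libraries of CD4 T cells, and 879.6 and 1063 CPM in the WT and 860.2 and 985 CPM in the STAT3ko libraries of CD8 T cells. The second library was higher in each group, and all 4 CD8 libraries lay above all 4 CD4 libraries. The log2 fold change between CD8 and CD4 was 0.32 ± 0.14 in WT (SE, adjusted p = 0.155) and 0.28 ± 0.14 in STAT3ko (adjusted p = 0.26). The edgeR fit with the replicate block called both (adjusted p = 0.00795 and 0.022). With STAT3 loss the log2 fold change of Ptpn22 was -0.036 (95% interval -0.37 to 0.30) in CD4 and -0.074 (-0.40 to 0.26) in CD8 T cells.

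In the lineage comparisons the sum of 6 NK cell markers moved as well, from 90.8 to 127 CPM in the CD4 libraries to 544 to 1074 CPM in the CD8 libraries. Most of it was Gzma, a granzyme of cytotoxic T cells too, at 71.5 to 95.8 CPM in the CD4 and 512 to 1031 CPM in the CD8 libraries. Ncr1, which defines NK cells, was at no more than 0.246 CPM in any library. Others of that list were not as low. Klrb1c was at 14.9 to 18.6 CPM in the CD4 and 13.9 to 26.2 CPM in the CD8 libraries. Fcer1g was at 2.23 to 7.56 CPM in the CD4 and 5.16 to 21.9 CPM in the CD8 libraries, and Klre1 at 0.244 to 1.23 and 1.39 to 3.55 CPM. The macrophage and monocyte sum was 154 to 224 CPM in CD8 libraries, with Itgam highest. In it Csf1r was at 0.558 and 18.7 CPM in the WT and 1.75 and 15.8 CPM in the STAT3ko libraries of CD8 T cells. The B cell sum was 37.3 to 54.7 CPM. Within that B cell sum, Cd79b was higher in CD8 libraries, at 11.9 to 12.8 CPM against 0.892 to 2.46 CPM in CD4 libraries. The part of these cells in the Cd247 and Fyn differences was not tested.

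Compared per length, Cd3g was the most abundant member in every group. In WT CD4 the RPKM was 775 ± 120 for Cd3g (SD, n = 2), 431 ± 2.96 for Lck, 415 ± 22.9 for Cd3e, 349 ± 65.8 for Lat, 284 ± 10.1 for Fyn, 271 ± 38.6 for Ptpn22, 164 ± 13.6 for Cd247, 160 ± 26.5 for Zap70 and 34.6 ± 2.93 for Matk. Lck and Cd3e overlapped in that order, as did Fyn and Ptpn22, and Cd247 and Zap70. Exons of Cd247 overlap those of Pou2f1, as given above, and the effect of this on its RPKM was not tested. In WT CD8 the order changed, with 659 ± 24.8 for Cd3g, 469 ± 21.0 for Cd3e, 438 ± 2.14 for Lck, 334 ± 40.8 for Ptpn22, 245 ± 38.4 for Lat, 193 ± 2.38 for Fyn, 125 ± 15.3 for Zap70, 99.5 ± 0.44 for Cd247 and 3.08 ± 0.99 for Matk. No neighbours overlapped in that list. Ptpn22 thus stood above Lat and Fyn in WT CD8, whereas in WT CD4 it stood below Lat and overlapped with Fyn.

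The ratio of Lck to Fyn RPKM, which compares the kinases within a library, was 1.49 and 1.55 in the WT and 1.83 and 1.98 in the STAT3ko libraries of CD4 T cells, and 2.26 and 2.28 in the WT and 2.27 and 2.08 in the STAT3ko libraries of CD8 T cells. The CD4 groups did not overlap with each other, and both lay below the CD8 libraries, which overlapped. The ratio of Cd3g to Cd247 RPKM was 4.71 ± 0.34 in WT CD4 (SD, n = 2), 5.56 ± 0.53 in STAT3ko CD4, 6.62 ± 0.22 in WT CD8 and 7.23 ± 0.84 in STAT3ko CD8. The overlap of Cd247 with Pou2f1 exons applies to this ratio too. With 2 libraries against 2, a permutation test could not reach a p below 0.05, and none was made on these ratios.

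**Figure D4:**
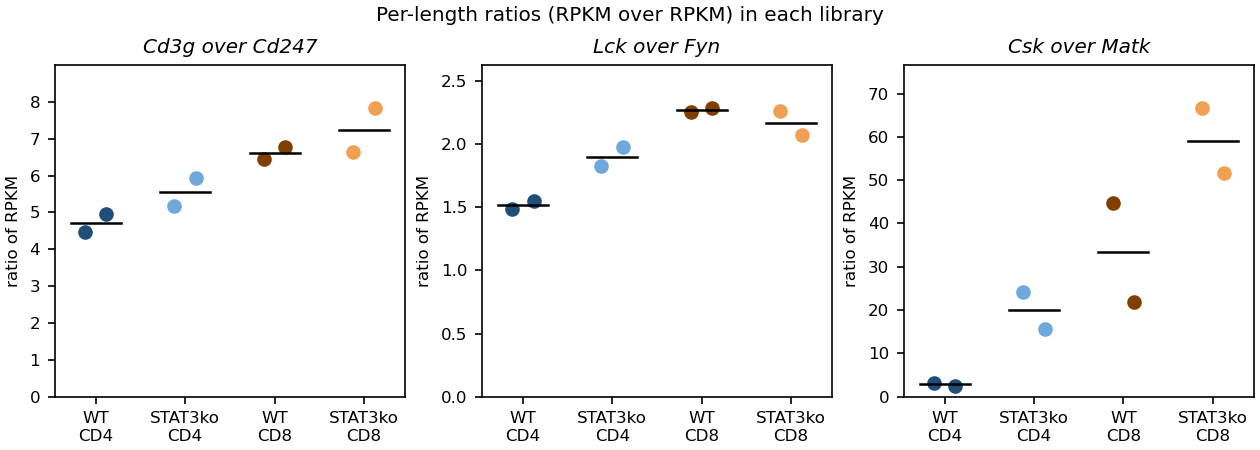
Ratios of deposited RPKM (vertical axis, no unit, from 0) of Cd3g over Cd247, Lck over Fyn and Csk over Matk, with a point for each of the 8 libraries and a line for the group mean. The Lck to Fyn ratio runs from 1.49 in WT CD4 to 2.28 in WT CD8, and the Csk to Matk ratio from 2.42 to 66.5.

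The 54 other genes of the pathway that were listed, all of them tested, gave the wider setting. With STAT3 loss in CD4 T cells 3 of 54 passed, 5.56% against 11.6% of all genes, with 2 higher and 1 lower, and their median log2 fold change was 0.026. Sla2, an adaptor that promotes removal of the receptor from the surface, rose to 59.9 and 59.7 CPM from 44.9 and 39.6 CPM (0.50 ± 0.10, SE, adjusted p = 0.0208). Themis, an adaptor needed for T cell selection in the thymus, rose to 579 and 519.7 CPM from 398 and 351 CPM (0.55 ± 0.14, adjusted p = 0.0385). Txk, a kinase of the Tec family, fell to 51.8 and 53.9 CPM from 73.4 and 96.8 CPM (-0.69 ± 0.16, adjusted p = 0.0303). Of the surface receptors, phosphatases and downstream enzymes and scaffolds, 0 of 7, 0 of 8 and 0 of 11 passed.

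These 3 calls rested on few libraries. Each was lost in a fit to its 4 libraries alone (adjusted p = 0.0534 for Txk, 0.0753 for Sla2 and 0.0699 for Themis), and without WT CD4 replicate 2, STAT3ko CD4 replicate 1 or STAT3ko CD4 replicate 2 (adjusted p between 0.116 and 0.229). Txk and Themis were also lost without either STAT3ko CD8 library (0.0513 to 0.0796), and Themis without WT CD4 replicate 1 (0.0651).

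In CD8 T cells 1 of 54 passed with STAT3 loss, 1.85% against 2.07% of all genes, and the median log2 fold change was -0.041. Cd6, a surface receptor that modulates the signal, fell to 149 and 125 CPM from 226 and 254 CPM (-0.81 ± 0.12, adjusted p = 0.0257). The call was lost in a fit to the 4 libraries alone (0.0799) and without any of STAT3ko CD4 replicates 1 and 2, WT CD8 replicates 1 and 2 and STAT3ko CD8 replicates 1 and 2 (0.0629 to 0.175). Themis was at 507 and 407 CPM in the WT and 685 and 681 CPM in the STAT3ko libraries of CD8 T cells (0.58 ± 0.14), with an adjusted p of 0.0762.

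Between the lineages many more pathway genes differed. In WT 8 of 54 were higher and 15 lower in CD8 than in CD4 T cells, 42.6% in all against 23.8% of all genes. Without the sorted coreceptors Cd4, Cd8a and Cd8b1 it was 20 of 51, 39.2%. The 3 highest others were Syk (1.53 ± 0.31, SE, adjusted p = 0.00973), the relative of Zap70 found mainly in B and myeloid cells, Ubash3b (1.28 ± 0.16, adjusted p = 0.00119), a phosphatase that dampens the signal, and Tec (1.12 ± 0.14, adjusted p = 0.00143), the kinase that names its family. Syk was low throughout, at 4.24 and 3.97 CPM in the CD4 and 11.5 and 12.1 CPM in the CD8 libraries of WT, and its call was lost without WT CD4 replicate 2 (adjusted p = 0.0504).

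The 3 lowest were Trat1 (-4.85 ± 0.49, adjusted p = 0.000504), a transmembrane adaptor, Malt1 (-1.0 ± 0.13, adjusted p = 0.00161), the protease that links the receptor to NF-kB, and Fyb (-0.92 ± 0.15, adjusted p = 0.00419), an adaptor that binds Lcp2. Trat1 was at 8.68 and 13.7 CPM in the CD4 and at 0.173 and 0.59 CPM in the CD8 libraries of WT. In STAT3ko cells 6 of 54 were higher and 10 lower, 29.6% against 12.5% of all genes (13 of 51, 25.5%, without the coreceptors). Ubash3b (1.10 ± 0.16) and Tec (1.27 ± 0.14) were higher, and Trat1 (-3.73 ± 0.44) and Fyb (-0.69 ± 0.15) were lower. The Fyb call was lost in 4 of 17 alternatives, whereas those of Ubash3b, Tec and Trat1 held in all 17. Syk (0.85 ± 0.30, adjusted p = 0.109) and Malt1 (-0.28 ± 0.13, adjusted p = 0.227) did not pass. Among the downstream enzymes and scaffolds 5 of 11 were lower in WT CD8 and 2 of 11 in STAT3ko CD8, and none was higher.

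**Figure D5:**
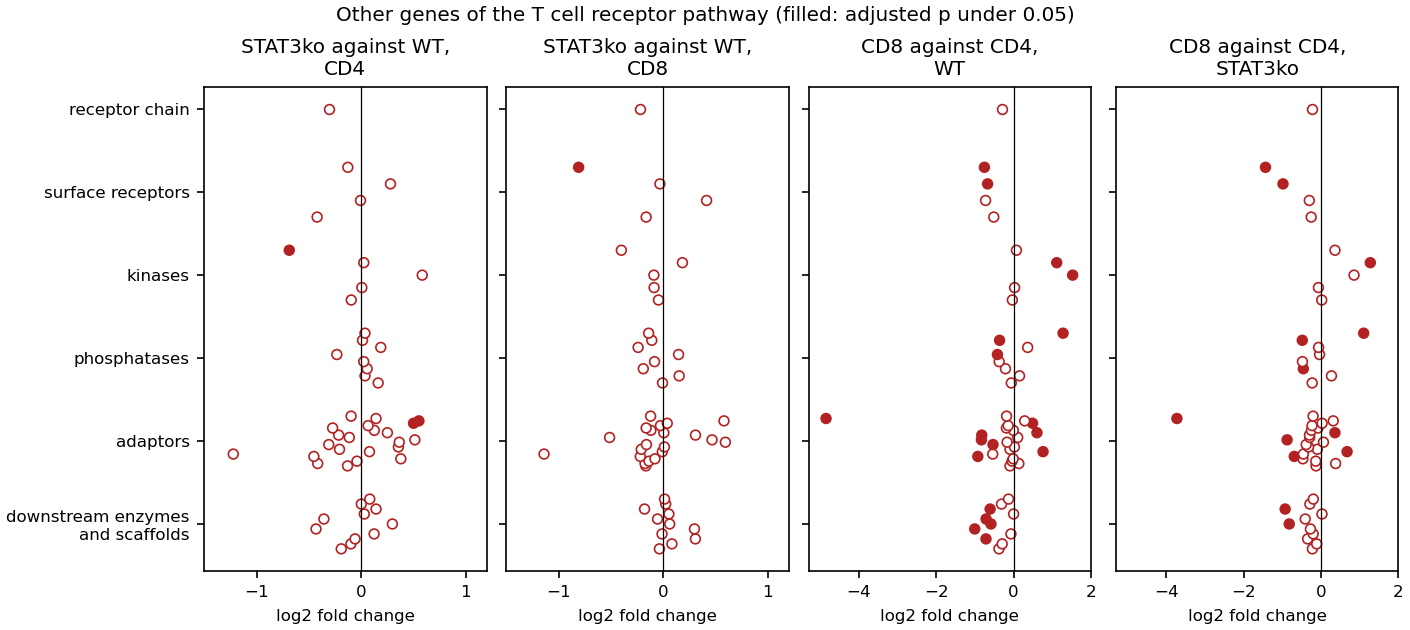
Log2 fold changes (horizontal axis, no unit) of 51 other pathway genes by function in 4 comparisons, without the sorted coreceptors Cd4, Cd8a and Cd8b1, with filled points for an adjusted p under 0.05. The horizontal scale of the 2 panels on the left is narrower, and the point at -4.85 in WT is Trat1.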

How the data were processed

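RNA was sequenced from 8 libraries of sorted spleen T cells. The authors mapped reads to mm10, a build of the mouse genome, by STAR, counted them per RefSeq gene with HTSeq, and deposited raw counts and RPKM values. The filter filterByExpr (minimum count 10) passed 12428 genes, and library sizes were scaled by TMM. A single model with group means took in all 8 libraries in edgeR 4.0.16 (R 4.3.3), and genes were called by its quasi-likelihood test at a two-sided Benjamini-Hochberg adjusted p under 0.05 over all tested genes. CPM are TMM-scaled, except that all cell type marker values are by column total, and RPKM are as deposited. Standard errors come from the F statistic. A count of 0 allows up to 3 counts, or 0.129 to 0.149 CPM (counting error only).

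The members and gene lists were chosen with earlier results of these data known. Named were the 9 members, Csk, Stat3, other pathway genes called with STAT3 loss, the 3 highest and 3 lowest called in WT CD8 against CD4 without coreceptors, and the 5 genes most like Matk (mean log2 CPM at least 3), of which 4 are reported here. Ptprc and Cd3d were named after their values were seen. Alternatives were DESeq2 1.42.0, the edgeR likelihood-ratio test, RLE factors, total counts, no filter, a replicate block, the 4 libraries alone, log2(RPKM + 1) and log2(RPKM + 0.1) in limma 3.58.1, and each library left out. Exon overlaps were read from GENCODE M21 on the same build. Cd3e, Lck and Lat also share 135, 25 and 75 exon bases with an antisense RNA or a miRNA.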

Additional observations from a re-analysis of the deposited data

Results flagged for a closer look

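In 2 of the 54 other pathway genes, 3.7%, the STAT3ko libraries moved one way in CD4 and the other way in CD8 T cells, with no overlap of WT and STAT3ko in either lineage, which held for 2.79% of all 12428 tested genes. Both genes are named because of this pattern, which sets the differences below apart from 0, so these are a description and no independent test. Ptprc, the phosphatase CD45 that primes Lck, was at 4216 and 4415 CPM in the WT and 3452 and 3898 CPM in the STAT3ko libraries of CD4 T cells, and 3265 and 3199 CPM in the WT and 3402 and 3752 CPM in the STAT3ko libraries of CD8 T cells. Its difference between the effects, CD8 minus CD4, was 0.38 on the log2 scale (SE 0.12), and it did not pass over all genes (adjusted p = 0.403). Malt1 was at 472 and 429.6 CPM in the WT and 343 and 326 CPM in the STAT3ko libraries of CD4 T cells, and 243 and 207 CPM in the WT and 299.9 and 253 CPM in the STAT3ko libraries of CD8 T cells, a difference between the effects of 0.73 (SE 0.19, adjusted p = 0.299). Neither single effect passed in either gene in the fit reported. In the alternatives the Malt1 effect passed in 3 of 17 in CD4 and in 1 of 17 in CD8, and the Ptprc effect passed in 0 of 17 in each lineage.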

How the results depend on the processing

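Each log2 fold change of a member was recomputed in up to 17 alternatives, and of 689 values with a test 591 kept their direction and their side of the threshold. Members called with STAT3 loss in CD4 went from 0 to 1 (Fyn) with DESeq2 and with total counts, which called 15.5% and 11.8% of all genes (11.6% in the fit reported), and in CD8 from 0 to 1 (Matk) with DESeq2, the likelihood-ratio test and no filter, which called 7.89%, 6.56% and 2.58% of all genes (2.07% reported). For CD8 against CD4 in STAT3ko, where 2 were called, DESeq2 called 4 (16.2% of all genes, 12.5% reported), and the likelihood-ratio test (16.2%), no filter (9.44%) and both log2 RPKM fits (11.9% and 12%) called 1. In each comparison of groups, every fit with 1 library left out called a smaller share of all genes than the fit reported. Of the other pathway genes, DESeq2 called 10 and the 4 libraries alone (8.35% of all genes) 1 with STAT3 loss in CD4 (3 in the fit reported), and DESeq2 called 5, the likelihood-ratio test 4 and the 4 libraries alone (0.307%) 0 in CD8 (1 reported). For the difference of the effects DESeq2 called 2 and 1.83% of all genes (0 reported). Leaving out 1 library called 0 to 4 of them in CD4, 0 to 1 in CD8, 0 for the difference, 16 to 22 between the lineages in WT and 9 to 15 in STAT3ko. The causes were not tested.

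The labels number the replicates 1 and 2 in each group and do not say what a number shares, so pairing was not assumed. The running numbers in the titles lie in separate ranges for replicates 1 and 2, and the labels do not say what that marks. Deviations of same-numbered libraries correlated at 0.42 to 0.67 over genes between groups. Cd8a in CD4 libraries, Cd4 in CD8 libraries and Csf1r in all groups were higher in replicate 2, as given above, and the part of this was not tested. With the replicate block, 1 member was called with STAT3 loss in CD4 (Fyn, adjusted p = 0.0117) and 1 in CD8 (Matk, 0.00514), 5 in each lineage comparison (Cd247, Fyn, Zap70, Lat and Ptpn22) and 0 for the difference. Of the other pathway genes the block called 17 in CD4, 9 in CD8, 2 for the difference and 30 between the lineages in STAT3ko, where 16 were reported. Over all genes the block called 30.1% in CD4, 18.2% in CD8, 3.24% for the difference, 42.1% between the lineages in WT and 29.7% in STAT3ko.

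Directions reversed only for values close to 0 that passed in no fit. Cd3g with STAT3 loss in CD4, reported at 0.014, was at -0.021 (total counts), -0.016 (no filter), -0.0051 (the 4 libraries alone), -0.015 (log2(RPKM + 1) and log2(RPKM + 0.1)). Lck with STAT3 loss in CD4, reported at 0.015, was at -0.017 (total counts), -0.013 (no filter and log2(RPKM + 1) and log2(RPKM + 0.1)), -0.0031 (the 4 libraries alone). With 1 library left out, values with STAT3 loss in CD4 ran for Cd3e from -0.083 to 0.035, for Cd3g from -0.16 to 0.16, for Lck from -0.035 to 0.037, for Ptpn22 from -0.19 to 0.096. Cd3e with STAT3 loss in CD8, reported at 0.0058, was at -0.037 (total counts), -0.0048 (no filter), -0.0075 (log2(RPKM + 1) and log2(RPKM + 0.1)). Cd3g with STAT3 loss in CD8, reported at 0.0036, was at -0.00076 (DESeq2 and RLE factors), -0.039 (total counts), -0.0062 (no filter), -0.0057 (log2(RPKM + 1) and log2(RPKM + 0.1)). With 1 library left out, values with STAT3 loss in CD8 ran for Cd3e from -0.12 to 0.11, for Cd3g from -0.054 to 0.047, for Ptpn22 from -0.21 to 0.061. Cd3g for the difference of the effects, reported at -0.010, was at 0.0098 (no filter), 0.0096 (log2(RPKM + 1) and log2(RPKM + 0.1)). Lat for the difference of the effects, reported at 0.0039, was at -0.0050 (total counts). With 1 library left out, values for the difference of the effects ran for Cd3e from -0.092 to 0.13, for Cd3g from -0.16 to 0.16, for Zap70 from -0.29 to 0.067, for Lat from -0.18 to 0.19, for Ptpn22 from -0.17 to 0.11. With 1 library left out, the value for WT CD8 against CD4 ran for Lck from -0.00042 to 0.037. With 1 + RPKM, Matk between the STAT3ko lineages was at -1.14. Matk in STAT3ko CD8 rested on 72 and 85 counts, the fewest of any member.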
